A study of Mus musculus with 18 samples.

Results

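The 54 genes described here drive, carry out or restrain the cell cycle and DNA replication. They are a list of named genes, looked up by symbol among the 35551 mouse Ensembl gene IDs measured, and all 54 were found. By their textbook role they were divided into 5 G1 cyclins and kinases, 8 G1/S genes, 12 replication genes, 4 nucleotide supply genes, 19 G2/M genes and 6 inhibitors. The measurements come from AML12, an immortal mouse hepatocyte line, sequenced as poly(A) RNA after circadian synchronization. There were 6 groups of 3 libraries, 18 in all: pemafibrate, which activates the nuclear receptor PPARα selectively, or its DMSO control, in each of 3 windows named by their start and end times in hours. The window T0 to T24 was a 24 h exposure, and T14 to T20 and T24 to T30 were 6 h exposures meant to mimic day and night, so start, harvest time and, for T0 to T24, length differ together. All 6 groups were synchronized, and the labels give no dose. AML12 was established from a mouse carrying a transforming growth factor alpha transgene and divides in culture, so it differs as a model from the adult liver, whose hepatocytes rarely divide.

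A cell that commits to division passes from G1 into S phase when D-type and E-type cyclins with their kinases inactivate the retinoblastoma protein and release E2F transcription factors. E2F then raises transcription of the genes that license origins, unwind and copy DNA and make deoxynucleotides, and a later wave of mitotic genes, read out through CHR and CCAAT promoter elements, follows in G2. Inhibitors of the kinases hold the cycle back. Hepatocytes in the adult liver are mostly quiescent and enter this programme after injury, and in rodents prolonged PPARα activation is known to increase hepatocyte division.

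Values are the authors' normalized estimated counts per gene, with totals from 31461977 to 33884634 per library, 33278987 to 33884634 in the 6 libraries of replicate 3 and 31461977 to 33050070 in those of replicate 1. Levels are not divided by transcript length and so are compared between libraries, never between genes. As a check of the treatment labels, Acot1, a thioesterase regulated by PPARα, rose in pemafibrate libraries with a log2 fold change of 0.73 ± 0.036 (SE) over all windows (limma, adjusted p = 2.72e-07). Nothing in the labels says whether the 3 replicate numbers were separate cultures, and the p-values therefore cover only library-to-library spread, which may be technical. Same-numbered libraries of both treatments deviated together, and all pemafibrate comparisons below are paired by number. Hepatocyte markers were mixed: Alb and Ttr were measured at 3124 to 7189.9 (lowest to highest of 18 libraries) and 1452 to 4276, Hnf4a at 5476 to 9662, but Apoa1 lay near 0, at 3.0 to 15.8. Biliary Krt19, Krt7, Sox9 and Spp1 were present, at 2757 or above in every library, and Epcam lay between 0 and 7.3. Immune markers were mixed too. Adgre1 and Clec4f were at 0 in every library, but Csf1r lay at 137.0 to 268.6, Cd68 at 29.3 to 60.7 and Ptprc at 27.6 to 58.5. In bulk RNA, fewer cycling cells and less RNA per cycling cell cannot be told apart. Of the 54 genes, 53 had a mean of at least 10 in every fit and were tested. Cdkn1c, an inhibitor of G1 kinases, lay between 0 and 5.0 in the 18 libraries and was not tested. A gene is called when its adjusted p over all genes tested (limma, Benjamini-Hochberg) is under 0.05.

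Promoters are shown here because the replication genes and the G2/M genes separated in the comparisons of replicate numbers and harvest times. RefSeq promoter windows (GRCm38.p6, 250 bases before to 50 after the first listed start) were matched for 41 of the 54 genes. An E2F motif (TTTCGCGC or TTTGGCGC, either strand) lay in 6 of 10 replication promoters, 60%, and in 0.833% of all 27025 promoters. A CHR motif (TTTGAA or TTCGAA, either strand) together with CCAAT (either strand) lay in 11 of 14 G2/M promoters, 78.6%, and in 7.7% of all promoters. CHR alone was in the same 11 and in 19.4% of all promoters, and CCAAT in 13 of the 14 and in 37.9% of all. The motifs were not exclusive to either group, since E2F was in 1 of 14 G2/M promoters, 7.14%, and CHR in 2 and CCAAT in 8 of the 10 replication promoters, 20% and 80%. Mcm5, a subunit of the replicative helicase, is shown from chr8:75109259-75109508 on the plus strand, with 2 overlapping E2F matches in capitals (TTTCGCGC and, 4 bases on, GCGCCAAA, which is TTTGGCGC on the other strand). Cdk1, the mitotic kinase, held all 3 motifs and is shown from chr10:69352913-69353162 on the minus strand, Mki67, a marker of dividing cells, from chr7:135716380-135716629 on the minus strand, and Top2a, the topoisomerase that untangles chromosomes, from chr11:99024190-99024439 on the minus strand. In these 3 the capitals mark CHR and CCAAT matches and, in Cdk1, the E2F match TTTCGCGC. Mcm5 also held CCAAT matches, which are left in lower case. Each line gives the 250 bases before the start, 5′ to 3′ on the gene's strand.
Mcm5: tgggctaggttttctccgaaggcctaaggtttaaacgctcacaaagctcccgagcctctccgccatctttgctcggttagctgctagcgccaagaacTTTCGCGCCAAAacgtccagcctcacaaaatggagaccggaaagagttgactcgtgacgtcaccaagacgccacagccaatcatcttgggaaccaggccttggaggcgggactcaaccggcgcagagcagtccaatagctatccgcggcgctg
Cdk1: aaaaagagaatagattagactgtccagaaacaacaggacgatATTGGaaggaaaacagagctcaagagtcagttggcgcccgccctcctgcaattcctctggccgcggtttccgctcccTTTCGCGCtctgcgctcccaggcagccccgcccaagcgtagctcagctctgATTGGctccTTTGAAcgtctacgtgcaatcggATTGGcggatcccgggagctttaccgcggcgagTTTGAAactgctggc
Mki67: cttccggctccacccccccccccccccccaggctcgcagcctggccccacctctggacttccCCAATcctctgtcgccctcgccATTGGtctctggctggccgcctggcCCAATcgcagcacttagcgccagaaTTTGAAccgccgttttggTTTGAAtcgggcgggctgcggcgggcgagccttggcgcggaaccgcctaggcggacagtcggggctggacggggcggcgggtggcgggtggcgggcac
Top2a: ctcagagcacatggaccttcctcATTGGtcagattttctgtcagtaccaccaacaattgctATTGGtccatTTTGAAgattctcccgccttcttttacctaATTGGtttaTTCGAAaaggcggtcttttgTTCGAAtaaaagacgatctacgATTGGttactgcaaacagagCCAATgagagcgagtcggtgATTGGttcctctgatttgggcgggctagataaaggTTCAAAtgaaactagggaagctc
The 3 CHR-bearing promoters hold 2, 2 and 4 CHR matches and 3, 3 and 6 CCAAT matches in this order. A match is a run of letters and was not tested as a binding site.

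The comparison of pemafibrate with DMSO asks whether the drug shifted the cell cycle programme in each window. No member was called in any window or over all windows, in a dataset where 0.0525%, 0.0379% and 0.0378% of all genes tested were called in the 3 windows and 0.189% over all windows. Most estimates were small and below 0 in the later windows: 25 of 53 members had a negative log2 fold change for T0 to T24, 36 in T14 to T20, 48 over T24 to T30 and 40 over all windows. The corresponding shares of all genes tested were 51.7%, 51.3%, 50.4% and 52.4%. Members shift together between libraries and each window has 3 pairs, so the 53 signs are not separate observations of the drug effect. The median over the members was 0.0027, −0.027, −0.063 and −0.019, against −0.0027, −0.0023, −0.00082 and −0.0025 over all genes. At an unadjusted p under 0.05 there were 2, 7, 7 and 9 members, beside 5.17%, 8.14%, 7.51% and 6.45% of all genes. Without the replicate block limma called 0 of all genes in every window, so its 0 called members add nothing to the result above. At an unadjusted p under 0.05 that setting had 0, 1 and 0 members, beside 94 of 13325, 73 of 13210 and 123 of 13231 genes.

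**Figure D1:**
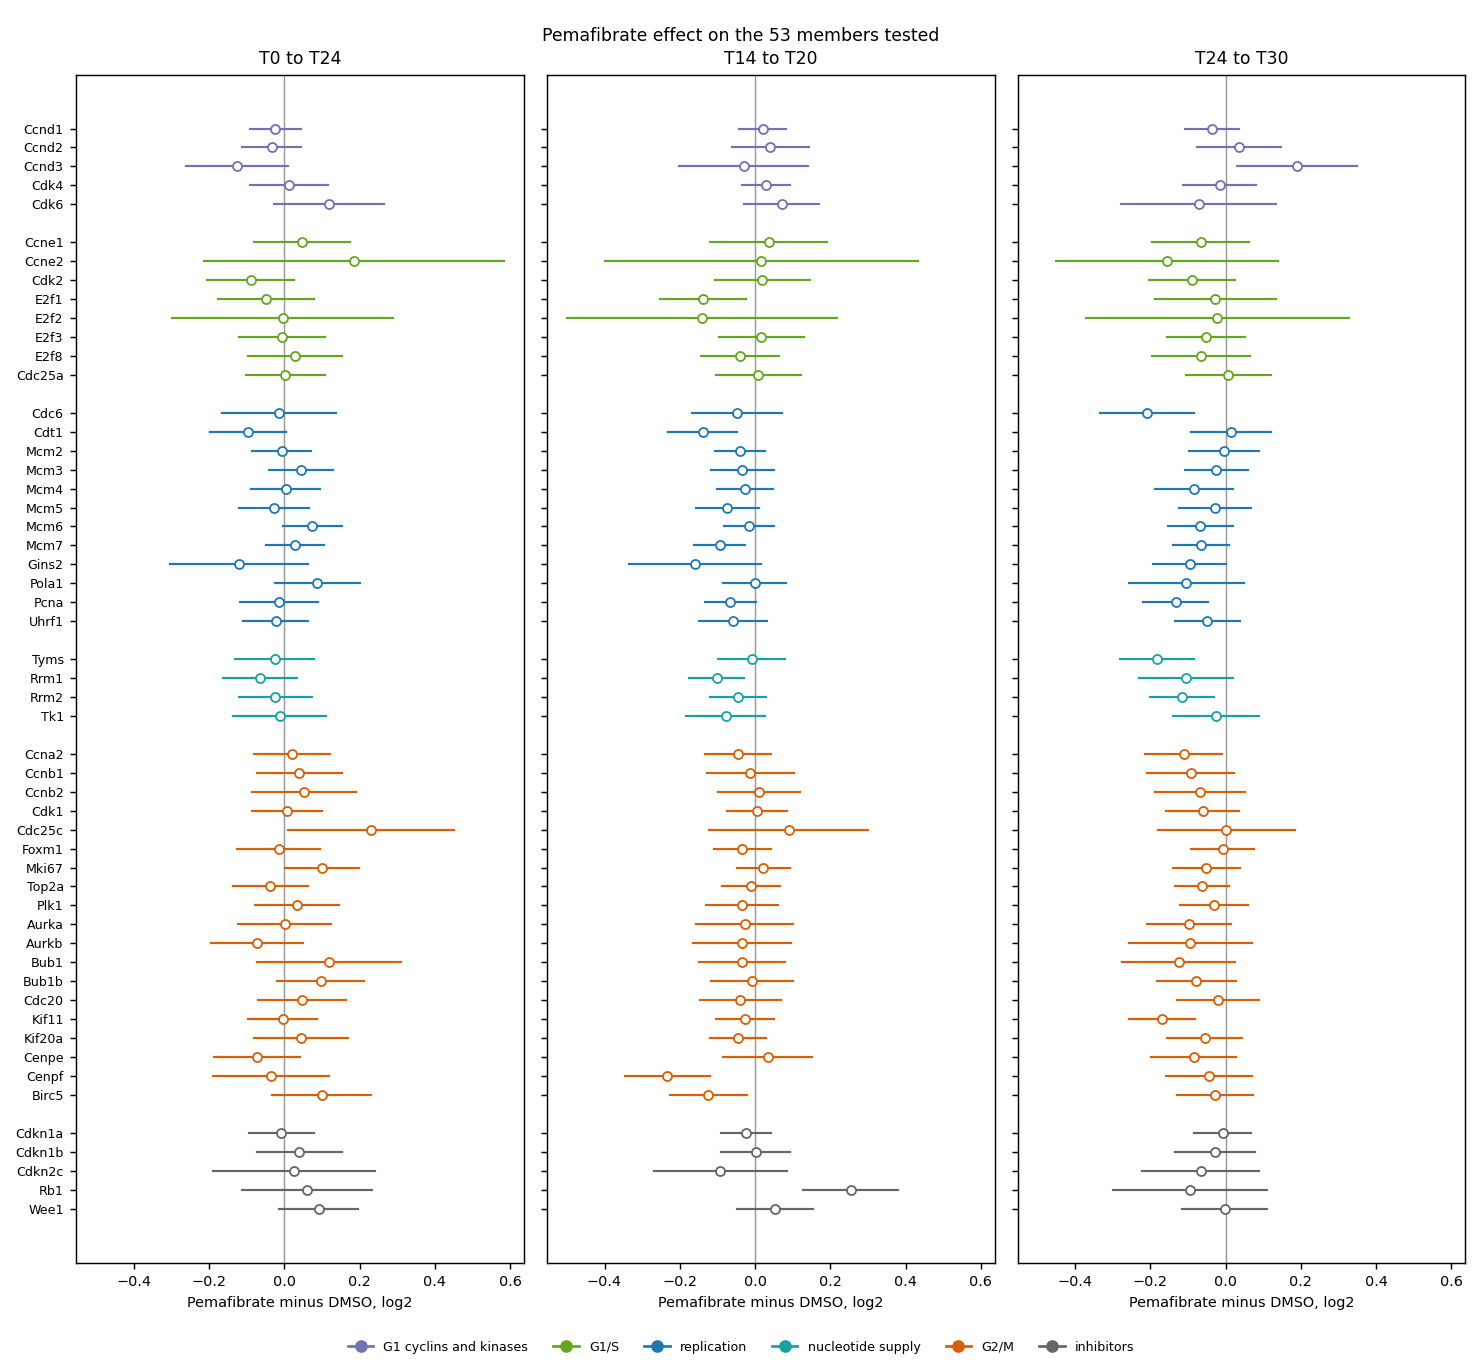
Log2 fold change of pemafibrate against DMSO (x axis) for the 53 members tested (rows, coloured by role), in the 3 windows (panels). Points are paired limma estimates from 3 pairs with 95% intervals, and open points did not pass the adjusted threshold; none did. Over T24 to T30 the points of 48 members lie left of 0.

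The 12 replication genes had mostly negative estimates in the 2 later windows. Library values are given in the order of replicates 1, 2 and 3, and by the harvest time that ends each window: T24, T20 and T30. Their estimates were below 0 for 7 of 12 over T0 to T24 (median −0.011), 12 of 12 over T14 to T20 (−0.053), 11 of 12 over T24 to T30 (−0.066) and 12 of 12 over all windows (−0.044), with none called. Pcna (ENSMUSG00000027342), the sliding clamp of DNA polymerases, measured 6786.5, 6811 and 8200.2 at T24, 7384, 6144 and 8162 at T20 and 8346, 5959 and 7553 at T30 in the DMSO libraries. In pemafibrate libraries Pcna measured 6922, 6252 and 8498.5, then 6943, 5970.4 and 7799.8, then 7427, 5694 and 6731 in the same order. Replicate 2 was lowest in 5 of the 6 groups, and the treatment ranges overlapped in every window. As log2 fold changes with SE, the paired pemafibrate effects on Pcna were −0.015 ± 0.044, −0.065 ± 0.029 and −0.13 ± 0.037 in the 3 windows in order of start, and −0.071 ± 0.024 over all (95% interval −0.12 to −0.019, adjusted p = 0.629), with 7 of 9 pairs lower. Gins2 (ENSMUSG00000031821), a subunit of the GINS complex that joins the replicative helicase, measured 2029, 2046 and 2589 at T24, 2047, 1743 and 2585 at T20 and 2257, 1758 and 2463 at T30 in the DMSO libraries. In pemafibrate libraries Gins2 measured 1819.8, 1646 and 2789, then 2065, 1637 and 1957, then 2090.5, 1663 and 2305 in the same order. Replicate 3 held the highest Gins2 value in 5 of 6 groups, and treatment ranges overlapped. Gins2 had the most negative estimate of the group over all windows, −0.13 ± 0.044 (95% interval −0.22 to −0.031, adjusted p = 0.629), and 7 of 9 pairs were lower. Mcm5 (ENSMUSG00000005410), whose promoter is shown above, measured 4537, 4083 and 5335 at T24, 4663, 3775 and 5858 at T20 and 4532, 3678 and 4895 at T30 in the DMSO libraries. In pemafibrate libraries Mcm5 measured 4425, 3869.6 and 5450.4, then 4312, 3769.6 and 5444, then 4302, 3526 and 5065 in the same order. In all 6 groups replicate 2 was lowest and replicate 3 highest, while treatment ranges overlapped. Pemafibrate estimates for Mcm5 were −0.028 ± 0.039, −0.074 ± 0.036 and −0.029 ± 0.040. Among the others, Cdt1, a licensing factor that loads the helicase, had −0.14 ± 0.039 over T14 to T20 and 0.013 ± 0.045 over T24 to T30. Cdc6, its loading partner, had −0.21 ± 0.053 over T24 to T30 (adjusted p = 0.601), the most negative estimate of any member in that window. Mcm2, Mcm3, Mcm4, Mcm6 and Mcm7, the remaining helicase subunits listed, lay between −0.044 and −0.0031 over all windows, and Pola1, the catalytic subunit of the priming polymerase, and Uhrf1, which maintains DNA methylation at forks, had −0.0058 ± 0.037 and −0.044 ± 0.020.

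All 4 nucleotide supply genes had negative estimates in each window, without a call. Rrm1 (ENSMUSG00000030978), the large subunit of ribonucleotide reductase, measured 7850.3, 9209 and 12204 at T24, 8434, 9661 and 11814 at T20 and 10428, 10704 and 11847 at T30 in the DMSO libraries. In pemafibrate libraries Rrm1 measured 8055, 8504 and 11277, then 8036, 8647 and 11206, then 9085, 9484 and 12319 in the same order. Replicate 1 was lowest and replicate 3 highest in every group. Rrm1 had the smallest p of all members over all windows, with −0.091 ± 0.027 (95% interval −0.15 to −0.033, adjusted p = 0.459) and 7 of 9 pairs lower, and −0.064 ± 0.042, −0.10 ± 0.031 and −0.11 ± 0.053 by window. Rrm2 (ENSMUSG00000020649), the small subunit of the same enzyme, measured 3929.6, 4301 and 6503 at T24, 4079.9, 3730.3 and 6876 at T20 and 4971, 4079 and 6501.5 at T30 in the DMSO libraries. In pemafibrate libraries Rrm2 measured 4033, 4020.3 and 6455, then 3914, 3716 and 6543, then 4492, 3723 and 6191 in the same order. Replicate 3 again stood above the others in every group. Rrm2 had −0.062 ± 0.022 over all windows (adjusted p = 0.629) and was lower in 8 of 9 pairs. Tyms (ENSMUSG00000025747), thymidylate synthase, measured 1717, 1841.5 and 2567 at T24, 1726, 1731 and 2558 at T20 and 2063, 1931 and 2650.4 at T30 in the DMSO libraries. In pemafibrate libraries Tyms measured 1635, 1865 and 2522, then 1729.8, 1707 and 2544, then 1862, 1670.4 and 2321 in the same order. Replicate 3 was highest in every group, and neither of the others was lowest throughout. Tyms estimates were −0.026 ± 0.045, −0.0083 ± 0.038 and −0.18 ± 0.042, so the night-like window held the most negative one (adjusted p = 0.564). Tk1, which salvages thymidine, had −0.039 ± 0.027 over all windows.

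Among the 19 G2/M genes the sign of the estimates was not the same in all windows: 13 were above 0 over T0 to T24 (median 0.033), 14 below 0 over T14 to T20 (−0.027) and 18 below 0 over T24 to T30 (−0.063), none called. Kif11 (ENSMUSG00000012443), the kinesin that pushes spindle poles apart, measured 2683, 3114 and 4803 at T24, 2742, 3138 and 4747 at T20 and 4497, 4244 and 5868 at T30 in the DMSO libraries. In pemafibrate libraries Kif11 measured 2715, 3022 and 4846.5, then 2720.0, 3033 and 4683, then 3865, 3846 and 5298 in the same order. Replicate 3 was highest in every group, and the T30 harvest held the highest value of each replicate number. Kif11 had −0.0043 ± 0.039, −0.027 ± 0.033 and −0.17 ± 0.037 by window and the smallest p of all members over T24 to T30 (adjusted p = 0.564), where 3 of 3 pairs were lower. Cenpf (ENSMUSG00000026605), a kinetochore protein of late G2 and mitosis, measured 2668.5, 2518 and 4343 at T24, 2869, 3063 and 5130.3 at T20 and 3884, 3822 and 5455.5 at T30 in the DMSO libraries. In pemafibrate libraries Cenpf measured 2283, 2514 and 4721, then 2231, 2790.2 and 4461, then 3659.5, 3504 and 5764 in the same order. Treatment ranges overlapped in all windows, and replicate 3 lay above the others in each. Its estimates were −0.036 ± 0.066, −0.23 ± 0.048 and −0.044 ± 0.048, and the value over T14 to T20 was the most negative of any member there (adjusted p = 0.374). Mki67 (ENSMUSG00000031004), the surfactant of mitotic chromosomes, measured 9854, 10157 and 17282 at T24, 9376, 10702.5 and 16310.4 at T20 and 13348, 13388 and 19552 at T30 in the DMSO libraries. In pemafibrate libraries Mki67 measured 11058, 11193 and 17231, then 9685, 10470.4 and 16911, then 13338, 12166 and 19357 in the same order. Replicate 3 stood apart here too, above both other numbers in each group. Mki67 had 0.10 ± 0.042, 0.022 ± 0.030 and −0.051 ± 0.038, positive over T0 to T24 in 2 of 3 pairs.

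Ccna2 (ENSMUSG00000027715), the cyclin of S and G2 phase, measured 1967, 2295 and 3649 at T24, 2185.5, 2378 and 3924 at T20 and 3142.5, 2651 and 4023 at T30 in the DMSO libraries. In pemafibrate libraries Ccna2 measured 2014, 2242.5 and 3799, then 2204, 2257 and 3734, then 2755, 2566 and 3755 in the same order. The highest value of every group was that of replicate 3. Ccna2 had 0.019 ± 0.043, −0.045 ± 0.038 and −0.11 ± 0.043, with 3 of 3 pairs lower over T24 to T30. Ccnb1 (ENSMUSG00000041431), the cyclin that brings the mitotic kinase to activity, measured 1394, 1945 and 2907 at T24, 1572, 1924 and 3275 at T20 and 2376, 2493 and 3563 at T30 in the DMSO libraries. In pemafibrate libraries Ccnb1 measured 1506, 1900.0 and 2988, then 1433, 2034 and 3314, then 2345, 2402 and 3088 in the same order. Replicate 1 was lowest and replicate 3 highest in all 6 groups. Pemafibrate estimates for Ccnb1 were 0.039 ± 0.048, −0.012 ± 0.050 and −0.093 ± 0.049. Cdk1 (ENSMUSG00000019942), its kinase, measured 2219.7, 2688 and 4369.7 at T24, 2404, 2393 and 4127.5 at T20 and 3399, 3069.5 and 4447.5 at T30 in the DMSO libraries. In pemafibrate libraries Cdk1 measured 2277, 2658 and 4372, then 2427, 2387.5 and 4135, then 3420.5, 2897 and 4121 in the same order. Every replicate 3 library lay above every library of the other numbers, and DMSO and pemafibrate libraries interleaved. Cdk1 had 0.0072 ± 0.040, 0.0045 ± 0.034 and −0.061 ± 0.041, and each 95% interval included 0. Top2a (ENSMUSG00000020914), the topoisomerase shown by its promoter, measured 7745, 8349 and 13592 at T24, 8802, 8129.8 and 12909 at T20 and 11706, 9826 and 14390.3 at T30 in the DMSO libraries. In pemafibrate libraries Top2a measured 8040.5, 7641 and 13226.5, then 8399, 8030.0 and 13412, then 11077, 9486 and 13832 in the same order. Replicate 3 was highest in every group and replicate 2 lowest in 5 of 6, and DMSO and pemafibrate ranges overlapped. Top2a had −0.038 ± 0.042, −0.010 ± 0.033 and −0.063 ± 0.031. Of the remaining G2/M genes, Cdc25c, a phosphatase that activates the mitotic kinase, had the largest positive estimate of all members over T0 to T24, 0.23 ± 0.094, and Birc5, the survivin gene of the chromosomal passenger complex, had −0.12 ± 0.043 over T14 to T20. The rest, Ccnb2, Foxm1, Plk1, Aurka, Aurkb, Bub1, Bub1b, Cdc20, Kif20a and Cenpe, had estimates over all windows from −0.067 to 0.0032.

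The G1 and G1/S genes had mixed signs. Ccnd1 (ENSMUSG00000070348), cyclin D1, which links growth signals to the G1 kinases, measured 36150.5, 44597 and 57874 at T24, 40501, 38679 and 55323 at T20 and 43842, 36136 and 48467 at T30 in the DMSO libraries. In pemafibrate libraries Ccnd1 measured 35791, 43655 and 56792.5, then 41385, 40041.5 and 54584, then 41786, 35908 and 47462 in the same order. Replicate 3 lay above both other numbers throughout. Ccnd1 had pemafibrate effects of −0.024 ± 0.029, 0.021 ± 0.027 and −0.036 ± 0.030 and a 95% interval of −0.046 to 0.019 over all windows. Cdk4 (ENSMUSG00000006728), a kinase partner of cyclin D, measured 11340.0, 14069.6 and 13607 at T24, 10928, 13751.5 and 14139 at T20 and 11734.5, 14394 and 14712 at T30 in the DMSO libraries. In pemafibrate libraries Cdk4 measured 11300.2, 13311 and 14815, then 10934, 14167 and 14589.7, then 11854, 14969.8 and 13534 in the same order. Replicate 1 was lowest in all 6 groups. Cdk4 had 0.0086 ± 0.023 over all windows. Cdk6 (ENSMUSG00000040274), the other partner kinase, measured 3970.1, 3921 and 4725 at T24, 3461, 3770.5 and 3291 at T20 and 3769, 4039 and 3241 at T30 in the DMSO libraries. In pemafibrate libraries Cdk6 measured 4365, 4747 and 4547, then 3732, 3680.3 and 3622, then 3254, 3448 and 3789 in the same order. No replicate number was highest or lowest in every group for Cdk6, and its estimates were 0.12 ± 0.062, 0.071 ± 0.043 and −0.072 ± 0.087. E2f1 (ENSMUSG00000027490), an activating transcription factor of the G1/S step, measured 1144, 959 and 1297 at T24, 1215, 883 and 1277 at T20 and 1115, 700.5 and 1053 at T30 in the DMSO libraries. In pemafibrate libraries E2f1 measured 1139, 884 and 1279.6, then 1120.0, 821 and 1116, then 1099.8, 756 and 934 in the same order. Replicate 2 was lowest in all groups. E2f1 had −0.14 ± 0.049 over T14 to T20 and −0.072 ± 0.033 over all windows (adjusted p = 0.777), with 8 of 9 pairs lower. Cdk2 (ENSMUSG00000025358), the kinase partner of cyclins E and A, measured 1709, 1534 and 1869.9 at T24, 1609, 1195 and 1568 at T20 and 1419.8, 1219.7 and 1601 at T30 in the DMSO libraries. In pemafibrate libraries Cdk2 measured 1616, 1501.5 and 1676, then 1496.5, 1238 and 1694, then 1375, 1155 and 1451 in the same order. Replicate 2 was lowest in each group for Cdk2. Its estimate over all windows was −0.053 ± 0.030, and 7 of 9 pairs were lower. E2f8 (ENSMUSG00000046179), an atypical E2F that represses its targets, measured 1495, 1473 and 2292.5 at T24, 1511, 1263 and 2072 at T20 and 1663, 1302.5 and 1996 at T30 in the DMSO libraries. In pemafibrate libraries E2f8 measured 1611, 1530.4 and 2174, then 1426, 1214 and 2102, then 1729, 1182 and 1845 in the same order. Here replicate 2 was lowest and replicate 3 highest in all 6 groups. E2f8 had −0.026 ± 0.030 over all windows. Ccnd2 and Ccnd3, further D cyclins, had 0.014 ± 0.027 and 0.012 ± 0.056 over all windows, but Ccnd3 had −0.12 ± 0.057 over T0 to T24 and 0.19 ± 0.067 over T24 to T30 (adjusted p = 0.657). Ccne1, Ccne2, E2f2, E2f3 and Cdc25a, which act at the same step, lay between −0.056 and 0.015; Ccne2 and E2f2 were the least precise, with SE of 0.12 and 0.076.

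No inhibitor was called either, and their estimates were of both signs. Rb1 (ENSMUSG00000022105), the retinoblastoma protein that holds E2F, measured 890.4, 644 and 949 at T24, 738, 714 and 827 at T20 and 974.5, 698 and 1054 at T30 in the DMSO libraries. In pemafibrate libraries Rb1 measured 923, 752 and 889.5, then 865, 885 and 964.5, then 888, 769 and 861 in the same order. The DMSO and pemafibrate ranges did not overlap in 1 of the 3 windows, T14 to T20, where all 3 pemafibrate libraries lay above all 3 DMSO libraries. Ranges stood apart in some window for 2 of 53 members, Rb1 and Ccnd3, and for 9.78% of all genes. For Ccnd3 the window was T24 to T30. Rb1 had 0.060 ± 0.074, 0.25 ± 0.054 and −0.095 ± 0.086, and its value over T14 to T20 was the largest positive one there (95% interval 0.13 to 0.38, adjusted p = 0.374). Wee1 (ENSMUSG00000031016), the kinase that keeps the mitotic kinase phosphorylated and inactive, measured 1888, 1496 and 1919.7 at T24, 1577, 1243 and 1518 at T20 and 1873, 1461 and 1614 at T30 in the DMSO libraries. In pemafibrate libraries Wee1 measured 1985, 1585 and 2083, then 1686, 1276.5 and 1548, then 1783, 1475 and 1668 in the same order. Replicate 2 was lowest in every group. Wee1 was lower in 1 of 9 pairs and had 0.047 ± 0.024 over all windows (adjusted p = 0.814). Cdkn1a (ENSMUSG00000023067), the p53-responsive inhibitor of cyclin-dependent kinases, measured 5577, 6996 and 8189 at T24, 6367, 6795 and 8497 at T20 and 7150.2, 6705 and 8305 at T30 in the DMSO libraries. In pemafibrate libraries Cdkn1a measured 5652, 6679 and 8317, then 6298, 6596 and 8412, then 7036, 6753 and 8248 in the same order. Replicate 3 held the highest value of every group. Cdkn1a had −0.0084 ± 0.037, −0.024 ± 0.029 and −0.0076 ± 0.032. Cdkn1b (ENSMUSG00000003031), an inhibitor that accumulates in resting cells, measured 3085, 3303 and 3366 at T24, 3448, 3248 and 3327 at T20 and 3792, 3660.5 and 3624 at T30 in the DMSO libraries. In pemafibrate libraries Cdkn1b measured 3376, 3169 and 3484, then 3263, 3346 and 3427, then 3467, 3739.9 and 3655 in the same order. Its values spanned a narrow range, from 3085 to 3792 over the 18 libraries, and its estimate over all windows was 0.0044 ± 0.026. Cdkn2c, an inhibitor of the G1 kinases, had −0.045 ± 0.047.

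The windows were compared directly by the difference of their pemafibrate effects, which asks whether day-like, night-like and 24 h exposures differ. No member and no gene was called in any of the 3 differences (0% of 13258 genes tested each). At an unadjusted p under 0.05 there were 4 members for T14 to T20 minus T24 to T30, 2 for T0 to T24 minus T14 to T20 and 12 for T0 to T24 minus T24 to T30, and 9.24%, 4.93% and 7.97% of all genes. The 4 were Cdt1 (−0.15 ± 0.051), Rb1 (0.35 ± 0.11), Kif11 (0.14 ± 0.044) and Tyms (0.17 ± 0.050). The Kif11 effect was more negative by 0.14 in the night-like window, with a 95% interval of 0.046 to 0.24 (adjusted p = 0.41). For T0 to T24 minus T24 to T30 the 12 were Ccnd3, Cdc6, Mcm6, Mcm7, Pola1, Pcna, Tyms, Ccna2, Mki67, Bub1, Bub1b and Kif11, all but Ccnd3 with a higher estimate over T0 to T24 than over T24 to T30. Among them Mki67 had 0.15 ± 0.055 and Pola1 0.19 ± 0.079, with adjusted p = 0.595 and 0.614. Both comparisons with T0 to T24 share its 6 libraries.

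Cell cycle genes outside the 54 were examined as 3 further lists, chosen with earlier results of these data known and measured in the same libraries. These were 29 other replication genes, 36 other mitosis genes and 18 other genes of restraint and p53 response that passed the same filter. None was called for pemafibrate in a window or over all windows (limma). Below 0 over T24 to T30 were 25 of 29, 32 of 36 and 13 of 18, with medians of −0.072, −0.077 and −0.016. Over T0 to T24 the counts below 0 were 12, 15 and 14 (medians 0.0037, 0.013 and −0.039), and over T14 to T20 they were 21, 25 and 9 (medians −0.042, −0.026 and −0.0096). Over all windows the smallest p of the first list belonged to Rpa2, a subunit of the single-strand binding complex, at −0.13 ± 0.027 (adjusted p = 0.117). Cdc45, which joins the helicase, had −0.11 ± 0.036. In the mitosis list Prc1, a bundler of spindle microtubules, had −0.071 ± 0.020, Ncapg, a condensin subunit, −0.089 ± 0.033 and Cks1b, a kinase adaptor, −0.043 ± 0.022. Among the restraint genes Plk2, Cdkn2b and Cdkn2a had −0.045 ± 0.017, −0.077 ± 0.033 and −0.072 ± 0.031.

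The comparison of replicate numbers, with treatment and window held fixed, called most members. Replicate 3 was higher than replicate 1 for 41 of 53 members and lower for 1, tested by limma over all 18 libraries with the 6 groups as covariates. Many genes outside the list differed too: 51.6% of all genes tested were called, 26.7% higher and 24.8% lower. Replicate 2 against replicate 1 gave 10 members higher and 24 lower, where 45.2% of genes were called, 22.7% higher and 22.4% lower. Replicate 3 against replicate 2 gave 49 higher and 0 lower, where 44.0% were called, 22.5% higher and 21.5% lower. The 3 contrasts share libraries, and the members' medians were 0.40, −0.11 and 0.52 (log2), against 0.00094, −0.0019 and −0.0050 over all genes.

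**Figure D2:**
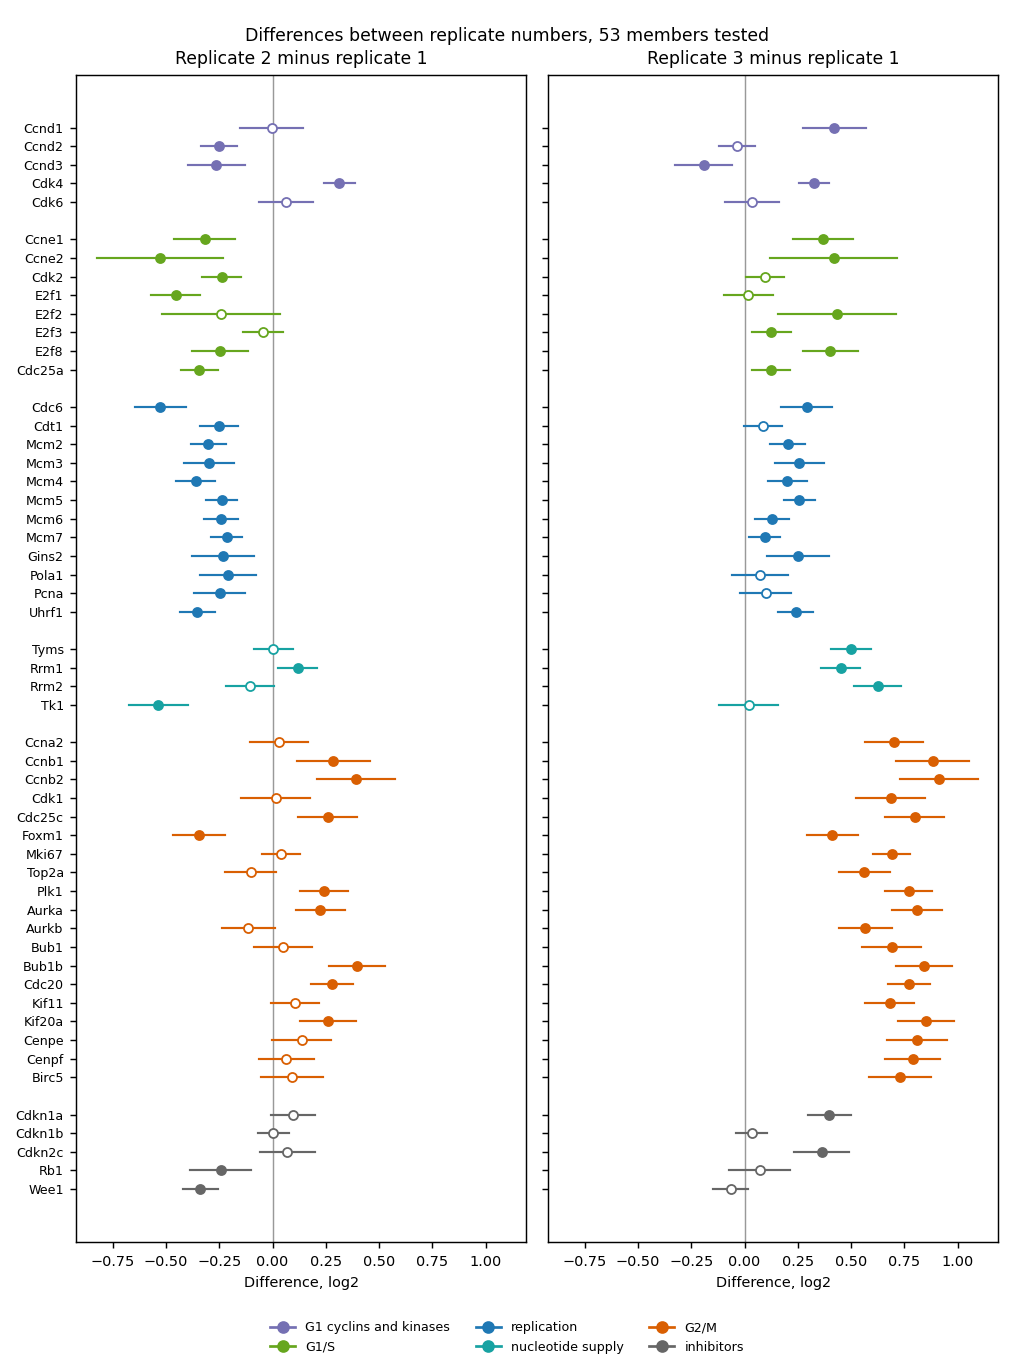
Log2 difference between replicate numbers (x axis) for the 53 members tested (rows, coloured by role). Points are limma estimates from 18 libraries with 95% intervals, filled where the adjusted p was under 0.05. All 19 G2/M points lie right of 0 for replicate 3 minus replicate 1, and all 12 replication points lie left of 0 for replicate 2 minus replicate 1.

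All 19 G2/M genes were higher in replicate 3 than in replicate 1, by 0.41 to 0.91 with a median of 0.77. For each of the 19, replicate 3 was the highest of the 3 numbers in 6 of 6 groups, and every replicate 3 library lay above every replicate 1 library. Over all 53 members those counts were 35 and 30, and the shares of all genes were 10.7% and 11.1%. The largest difference was that of Ccnb2, a partner of the mitotic kinase, at 0.91 ± 0.086 (SE), and the smallest that of Foxm1, a transcription factor of the mitotic genes, at 0.41 ± 0.057. Ccnb1 had 0.88 ± 0.081, Cdk1 0.69 ± 0.076, Mki67 0.69 ± 0.041 and Top2a 0.56 ± 0.056. Plk1 and Aurka, kinases of spindle assembly, had 0.77 ± 0.052 and 0.81 ± 0.055, and Bub1b and Cdc20, which act in the spindle checkpoint and in its release, had 0.84 ± 0.061 and 0.77 ± 0.047. Replicate 2 was called higher than replicate 1 for 8 of the 19 and lower for 1, Foxm1 (−0.34 ± 0.057). Of all genes 45.2% were called, 22.7% higher and 22.4% lower, so the share of the 19 that was called lay near that of all genes. Among the 8 were Bub1b (0.40 ± 0.061), Ccnb2 (0.39 ± 0.086) and Ccnb1 (0.29 ± 0.081). The other 10 did not pass, with Cdk1 at 0.014 ± 0.076 and Top2a at −0.10 ± 0.056.

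The replication genes, in contrast, were lowest in replicate 2. All 12 were lower in replicate 2 than in replicate 1, by 0.21 to 0.53 (log2). For replicate 3 minus replicate 1, 9 of 12 were called higher, with a median of 0.20 over the 12. That difference was smallest over T24 to T30. In DMSO libraries its median was 0.28 for T0 to T24, 0.23 for T14 to T20 and −0.0017 for T24 to T30. In pemafibrate libraries the medians were 0.27, 0.21 and 0.099. Replicate 2 was lowest in 6 of 6 groups for 10 of the 12, for 18 of the 53 members and for 7.12% of all genes. Every replicate 2 library lay below every replicate 1 library for 8 of 12, 13 of 53 and 7.29%. Cdc6 had the largest differences, −0.53 ± 0.056 for replicate 2 and 0.29 ± 0.056 for replicate 3 against replicate 1. Mcm5 had −0.24 ± 0.035 and 0.26 ± 0.035. Pcna, Cdt1 and Pola1 were the 3 that did not pass for replicate 3, at 0.099 ± 0.057, 0.086 ± 0.042 and 0.073 ± 0.063. Of the nucleotide supply genes Rrm2 (0.62 ± 0.052), Tyms (0.50 ± 0.044) and Rrm1 (0.45 ± 0.043) were higher in replicate 3 than in replicate 1. Tk1 instead was lower in replicate 2 (−0.54 ± 0.065) and had 0.019 ± 0.065 in replicate 3.

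The balance of the 2 groups in a library was expressed as the mean log2 level of the 19 G2/M genes minus that of the 12 replication genes. In DMSO libraries it was −1.39, −1.28 and −0.88 for replicate 1 at T24, T20 and T30, −0.99, −0.83 and −0.42 for replicate 2, and −0.82, −0.66 and −0.38 for replicate 3. Only its differences between libraries can be read, since levels are not per length. Replicate 1 had the lowest balance at each harvest, and replicate 2 lay nearer to replicate 3 than to replicate 1, while its replication genes were the lowest.

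**Figure D3:**
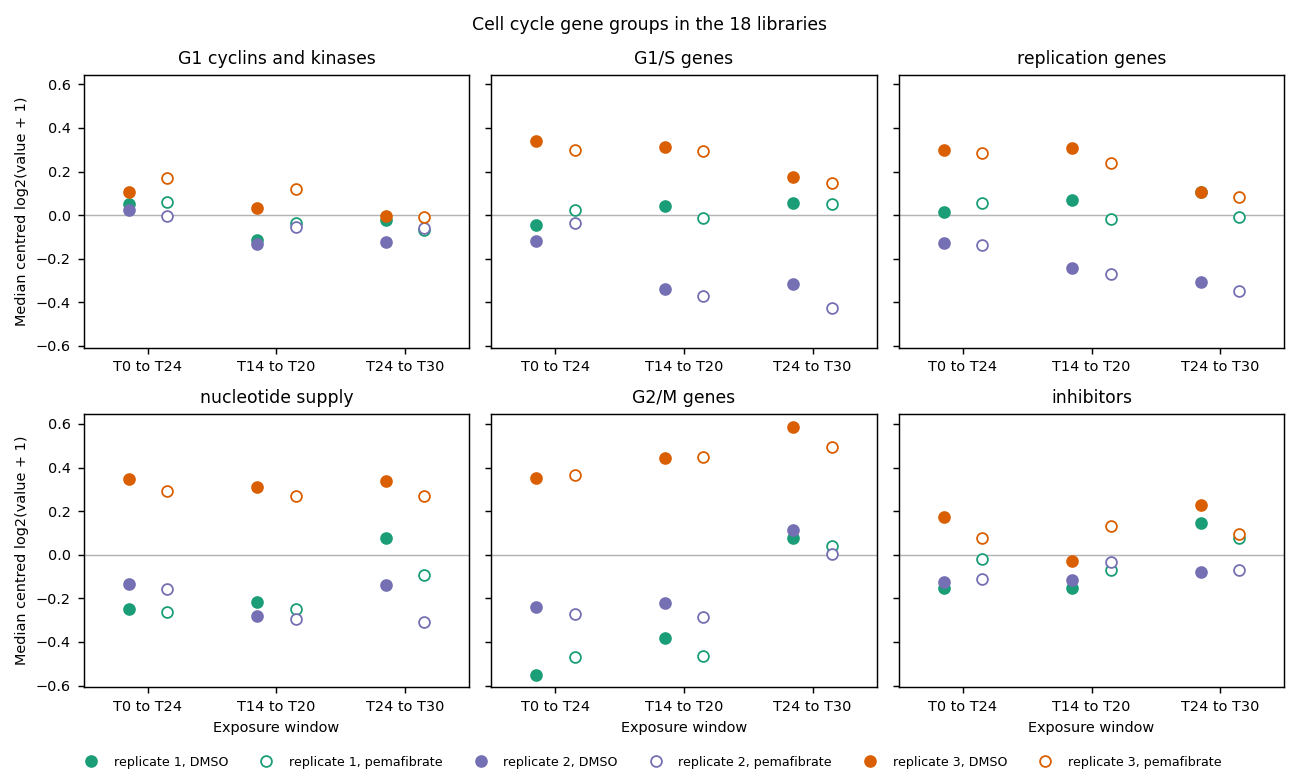
Median over each role group of the log2(value + 1), centred on the gene's mean over the 18 libraries (y axis), for each library (x axis, by exposure window; tables normalized separately). Filled points are DMSO and open points pemafibrate libraries, and colours are replicate numbers. The 2 treatments of a replicate number lie close together, and G2/M values of replicate 3 are the highest at each harvest.

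At the entry into S phase, 6 of 8 G1/S genes were lower in replicate 2 than in replicate 1 and 6 of 8 were higher in replicate 3. Of the E cyclins, which switch on the kinase of S phase entry, Ccne2 had −0.53 ± 0.14 and 0.42 ± 0.14, and Ccne1 −0.32 ± 0.067 and 0.37 ± 0.067. E2f1 was lower in replicate 2 (−0.46 ± 0.054) and had 0.016 ± 0.054 in replicate 3, while the repressor E2f8 had −0.25 ± 0.061 and 0.40 ± 0.061. Ccnd1 had −0.0037 ± 0.069 in replicate 2 and was higher in replicate 3 (0.42 ± 0.069). Cdk4 was higher in both, by 0.31 ± 0.034 and 0.33 ± 0.034, Ccnd3 lower in both, with −0.26 ± 0.063 and −0.19 ± 0.063, and Cdk6 had 0.065 ± 0.060 and 0.033 ± 0.060 without a call. Of the 5 inhibitors tested 2 were called in each contrast, beside 45.2% (replicate 2) and 51.6% (replicate 3) of all genes. Cdkn1a and Cdkn2c were higher in replicate 3 than in replicate 1 (0.40 ± 0.048 and 0.36 ± 0.060), and Wee1 and Rb1 were lower in replicate 2 (−0.34 ± 0.038 and −0.24 ± 0.068). Cdkn1b had 0.0026 ± 0.034 and 0.034 ± 0.034.

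The 3 further lists were compared in the same way. They were measured in the same libraries, so they are not independent of the members. For replicate 3 against replicate 1, 36 of 36 other mitosis genes and 22 of 29 other replication genes were called higher, none lower. Of the 18 restraint genes 12 were called higher and 2 lower. The shares of all genes were 26.7% higher and 24.8% lower. For replicate 2 against replicate 1, 25 of 29 other replication genes were called lower and 1 higher. Of 36 other mitosis genes 8 were called higher and 4 lower, and of 18 restraint genes 12 higher and 3 lower. The shares of all genes were 22.7% higher and 22.4% lower, which the mitosis list did not exceed. Of 8 hepatocyte markers tested, 3 were lower and 2 higher in replicate 3 than in replicate 1, beside 51.6% of all genes called. Alb, serum albumin, had means of 6657 ± 311, 3785 ± 272 and 3263 ± 132 (SD, n = 6) in replicates 1, 2 and 3, and Ttr, transthyretin, 3988 ± 274, 3584 ± 633 and 1777 ± 207. Hnf4a, a hepatocyte transcription factor, was at 7247 ± 209, 7225 ± 1119 and 8835 ± 757. The summed hepatocyte list ran from 200101 to 216639 in replicate 1, 173695 to 191036 in replicate 2 and 194892 to 217842 in replicate 3. Of its 9 genes, 8 had a mean of 10 or more. Krt8, Krt18 and Trf held the largest values, with replicate 1 means of 68233, 54647 and 44230. The sum therefore mainly follows these and not Alb or Ttr. Biliary sums (4 of 5 genes) ran from 51669 to 60371, 69741.5 to 76849 and 49623.5 to 54116. Stellate sums (3 of 7) ran from 93.3 to 130.3, 120.0 to 157 and 133 to 206, endothelial sums (1 of 4) from 16.6 to 32.4, 8.9 to 23.7 and 11.1 to 23.4, and immune sums (3 of 5) from 222 to 361, 263.5 to 338 and 206 to 329.7. The part of these markers, and of the normalized totals that were highest in replicate 3, in the cell cycle differences was not tested. Whether a replicate number stands for a culture, a day or a sequencing run is not stated in the labels.

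The size of the replicate gap was itself compared between windows, a contrast added after the data had been seen. In DMSO libraries the median G2/M difference of replicate 3 minus replicate 1 was 0.89 for T0 to T24, 0.84 for T14 to T20 and 0.53 for T24 to T30, and in pemafibrate libraries it was 0.87, 0.92 and 0.50. The difference was lower over T24 to T30 than over T14 to T20 for 11 of 53 members and higher for none, where 0.362% of all genes were called lower (limma, difference of within-table contrasts). It was lower than over T0 to T24 for 27 members and higher for none, where 8.25% of all genes were called lower. The 11 were Cdk1, Ccnb1, Kif11, Ccnb2, Birc5, Ccna2, Kif20a and Cenpe of the G2/M genes, with Ccnd1, Rrm2 and Mcm3. Kif20a is a kinesin of cytokinesis and Cenpe a kinesin of the kinetochore. Ccnb1 had the largest change of the gap, −0.64 ± 0.088 (adjusted p = 0.0206), and its DMSO levels were 1572 at T20 and 2376 at T30 in replicate 1, and 3275 and 3563 in replicate 3. Among the 27 were 13 G2/M genes, 6 replication genes, 3 nucleotide supply genes, 3 G1/S genes, Ccnd1 and Cdkn1a. Cdk1 had −0.63 ± 0.058 and Ccnd1 −0.51 ± 0.043. Between the first 2 windows the difference changed for 1 member, Ccnd1, at 0.25 ± 0.043 higher over T0 to T24, where 1.01% of all genes were called higher. Without a variance trend in limma the 3 counts were 0, 18 and 0, so the calls against T14 to T20 rest on that setting. These differences share libraries.

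**Figure D4:**
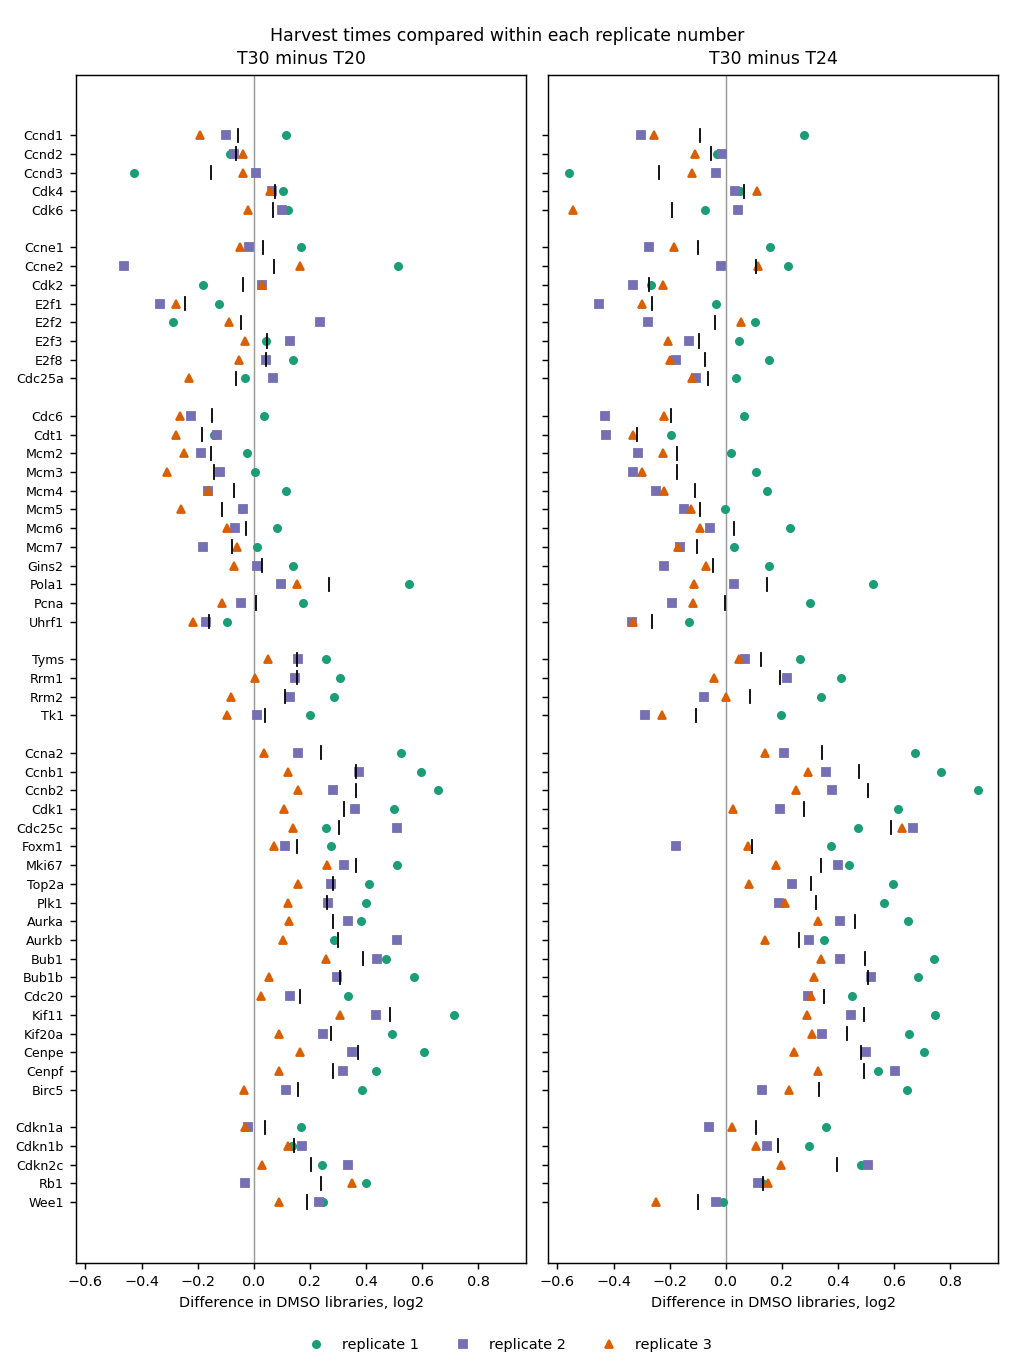
Log2 difference in DMSO libraries of the T30 harvest against T20 and against T24 (x axis) for the 53 members tested (rows). Coloured points are the 3 replicate numbers and the black tick is their mean; tables were normalized separately and no test was made. G2/M points lie right of 0 except for Birc5 in 1 number against T20 and Foxm1 in 1 number against T24.

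Harvest times were set side by side in the DMSO libraries, to see how the programme ran over time without drug. The 3 tables were normalized separately, so no test was made, and the DMSO libraries had been in solvent for 24 h at T24 and 6 h at T20 and T30. The median difference over all genes was 0.012 for T30 minus T20 and 0.040 for T30 minus T24. The mitotic genes were highest at T30. All 19 G2/M genes had a mean difference above 0 for T30 minus T20, and 18 of 19 were higher in all 3 replicate numbers, all but Birc5, beside 21.0% of all genes. The median over the group was 0.30, with 0.47, 0.32 and 0.12 in replicates 1, 2 and 3. The largest mean was that of Kif11, 0.48 ± 0.21 (SD, n = 3), followed by Bub1 at 0.39 ± 0.12 and Cenpe at 0.37 ± 0.22. Mki67 had 0.36 ± 0.13, Ccnb1 0.36 ± 0.24 and Top2a 0.28 ± 0.13. For T30 minus T24 the count was again 18 of 19, all but Foxm1, beside 27.5% of all genes, and the median was 0.43. T24 against T20 went the other way for 10 of 19, lower in all 3 numbers beside 23.2% of all genes, with Cdc25c at −0.29 ± 0.18 and Cenpf at −0.21 ± 0.093.

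Most replication genes did not share the high T30 level. The median of the 12 was −0.095 for T30 minus T20, with 3 of 12 means above 0, and −0.10 for T30 minus T24, with 2 of 12. By replicates 1, 2 and 3 the medians were 0.024, −0.13 and −0.19 against T20, and 0.085, −0.23 and −0.20 against T24. Against T20 Pola1 was higher in all 3 numbers, at 0.27 ± 0.25. Mcm5 had −0.11 ± 0.13 and −0.092 ± 0.080, and Pcna 0.0069 ± 0.15 and −0.0043 ± 0.26, with SDs of similar size or larger. The G2/M minus replication balance was highest at T30 in each replicate number, as listed above, and lowest at T24. Nucleotide supply genes had a median of 0.13 for T30 minus T20, with Rrm1 at 0.15 ± 0.15. Of the inhibitors Wee1 had 0.19 ± 0.088 and Cdkn1b 0.14 ± 0.025 for T30 minus T20, and for T30 minus T24 Wee1 had −0.099 ± 0.13, lower in all 3 numbers, and Cdkn1b 0.18 ± 0.10, higher in all 3 numbers. In the pemafibrate libraries the same comparison gave 15 of 19 G2/M genes higher in all 3 numbers for T30 minus T20 and 16 of 19 for T30 minus T24, beside 17.9% and 26.9% of all genes. Higher in 6 of 6 pairs of both treatments were 14 and 16 of 19, beside 6.47% and 15.6%.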

How the data were processed

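Each of the 3 windows has 1 deposited table of 35551 gene IDs and 6 libraries. The deposited values are normalized signal, that is, gene-level estimated counts which the authors scaled within a window, per the file headers, whose columns end as salmon output does. Versions, genome build and annotation: not given in the sources used here. Between 56.5% and 74.4% of low values (at most 8 reads) were whole multiples of 1 read within 0.05. Counts were therefore not rebuilt, a count test was not made, and depth before normalization is unknown. Symbols came from a gene name table, and 370 IDs had none. Libraries are stranded (dUTP), per the labels' protocols.

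Tests used log2(value + 1), a scale on which folds of low genes come out too small. The filter was a mean of 10 or more, and the test limma 3.58.1 (R 4.3.3; lmFit and trended eBayes), two-sided, with Benjamini-Hochberg adjustment over all genes tested and a threshold of 0.05. Pemafibrate effects were fitted with the replicate number as a block, within each table, and over all 18 libraries with 9 pairs as blocks. Pairs of 1 number in different windows may not be independent. Deviations from group means correlated at 0.31 to 0.62 across genes in the 9 same-number pairs and at −0.42 to −0.11 in the 18 pairs of different numbers. Deviations within a group sum to 0, so positive same-number values bring negative ones with them, and the negative range is not separate evidence. The pairing comes from the title numbers and the same-number values. Replicate numbers were compared with the 6 groups as covariates. Scripts were tested on simulated data. Tables and motifs were handled with Python 3.11.15, pandas 2.3.3 and numpy 2.4.6.

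The members, roles and further lists were chosen with earlier results of these data known. Library values are printed for the 2 members of each role with the smallest p over all windows, the member with the smallest p for replicate 3 minus replicate 1, and 13 set genes. In the further lists the 3 genes of smallest p over all windows are named, except 1 that is not reported here. Other settings were the block, pseudocounts of 0.5 and 5, no filter or a mean of 50, no variance trend, other scalings, subsets of libraries and leaving out each replicate.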

Additional observations from a re-analysis of the deposited data

Results flagged for a closer look

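The difference of replicate 3 minus replicate 1 was not the same in the 3 windows, by a direct test of the difference between windows (limma, chosen after the data had been seen). Between T24 to T30 and T14 to T20 it differed for 11 members, between T24 to T30 and T0 to T24 for 27, and between T0 to T24 and T14 to T20 for 1. The 11 and the 27 were lower over T24 to T30, beside 0.362% and 8.25% of all genes called lower. The 1 was higher over T0 to T24, beside 1.01% of all genes called higher. Without a variance trend in limma the 3 counts were 0, 18 and 0. For the 11, the log2 difference was lower over T24 to T30 by the following amounts, with adjusted p from 0.0206 to 0.0482. Among G2/M genes it was −0.64 for Ccnb1, −0.53 for Ccnb2, −0.47 for Cenpe and −0.47 for Birc5. It was −0.45 for Cdk1, −0.44 for Kif20a, −0.40 for Ccna2 and −0.37 for Kif11. Outside that group it was −0.32 for Rrm2, −0.31 for Mcm3 and −0.26 for Ccnd1. Groups of 3 libraries were too small for a check of single outlying libraries.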

How the results depend on the processing

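No member was called for pemafibrate under any setting run, in any window, over all windows or for a difference between windows. Without the replicate block the counts of members below 0 stayed at 25, 36, 48 and 40. They could not change, since complete pairs give the same estimates with or without the block. No member was called with or without the block, but without it 0 of all genes were called in each window and 2 over all windows. Leaving out each replicate gave 20 to 29, 30 to 40, 43 to 47 and 39 to 41 members below 0 and 0 called throughout. Of the single genes, the Rb1 estimate over all windows ran from −0.0026 (without replicate 2) to 0.14 (without replicate 3). The harvest medians ranged, leaving out each replicate, from 0.22 to 0.38 (G2/M) and −0.16 to −0.049 (replication) for T30 minus T20, and from 0.31 to 0.50 and −0.20 to −0.067 for T30 minus T24.

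For replicate 2 minus replicate 1, the 10 members called higher became 5 in DMSO libraries only, 5 in pemafibrate libraries only and 2 in T24 to T30 only, and the 24 called lower became 13 in T0 to T24 only. For replicate 3 minus replicate 1, the 41 called higher became 26 in T24 to T30 only, where the share of all genes called fell from 51.6% to 20.1%. The 1 called lower, Ccnd3, became 2 under upper quartile rescaling and 0 in DMSO libraries only, in pemafibrate libraries only, in T14 to T20 only and in T24 to T30 only. Each subset holds fewer libraries. E2f8 there had 0.18 in T24 to T30 only (adjusted p = 0.105, limma). Without the variance trend the 11 and the 1 members whose replicate difference changed between windows became 0 and 0, and the cause was not tested. Of the recomputed counts and harvest medians, 221 stayed within 1.5 times or 1 SD of the reported ones and 12 did not. The 221 include counts that stayed at 0 called, and sign counts without the block, which could not change. The members' medians moved more in places, from −0.11 to 0.0036 (T0 to T24 only) and −0.20 (T24 to T30 only) for replicate 2 minus 1, and from 0.40 to 0.22 (T24 to T30 only) for replicate 3 minus 1. For pemafibrate the T0 to T24 median of 0.0027 ran from −0.0051 (without replicate 1) to 0.019 (without replicate 2), and the T14 to T20 median of −0.027 was −0.014 without replicate 1. Read depth before normalization is unknown, so no limit from counting could be set.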
